A study of Mus musculus with 12 samples.

Results

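The genes of cholesterol and fatty acid synthesis were described in murine ovarian cancer cells that carried either an empty vector or both miR-200 clusters. The set held 33 genes, chosen by gene symbol as enzymes and regulators of the 2 pathways, and all 33 were found among the 57010 genes of each deposited count table. They comprised 18 enzymes that build cholesterol from acetyl-CoA, 6 genes for regulators and a sterol transfer protein, and 9 enzymes that make, desaturate or elongate fatty acids. ID8 and 28-2 are murine ovarian cancer cell lines that were grown as flat (2D) cultures, and each was infected with lentivirus. ID8EV and 28-2EV cells received an empty vector in which the EF1A promoter drives mCherry, and were kept in 30 µg/ml puromycin. ID8-200f and 28-2-200f cells received a pair of lentiviruses, one with the miR-200c/141 cluster and one with the miR-200b/200a/429 cluster, both under the CMV promoter. ID8-200f cells were kept in 40 µg/ml puromycin and 50 µg/ml hygromycin, and 28-2-200f cells in 60 µg/ml puromycin and 1000 µg/ml hygromycin, so the effect of the clusters and that of drug selection cannot be told apart. There were 3 libraries per group and 12 in all.

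Cells make cholesterol through the mevalonate pathway, in which acetyl-CoA is condensed to mevalonate, then to isoprenoids, squalene, lanosterol and finally cholesterol. The genes of this pathway are switched on together by SREBP2, while SREBP1 acts mainly on the genes of fatty acid synthesis. Both factors are made as membrane precursors that the escort protein SCAP carries out of the endoplasmic reticulum when sterol is scarce, and that the INSIG proteins hold back when it is plentiful. For that reason the transcripts of the cholesterol enzymes are known to follow the sterol supply of a culture closely.

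The microRNAs that the vectors carried fall into 2 seed families, and the sequences are shown because the seed decides which transcripts a microRNA can pair with. The mature sequences are those of RefSeq on GRCm38.p6, 5′ to 3′, with the seed (bases 2 to 8) in capitals. The miR-200b, miR-200a and miR-429 sequences lie on the minus strand of chromosome 4 between 156053916 and 156055706, and those of miR-200c and miR-141 on the minus strand of chromosome 6 between 124717917 and 124718346.
mmu-miR-200b-3p: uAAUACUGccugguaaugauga
mmu-miR-200c-3p: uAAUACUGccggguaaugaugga
mmu-miR-429-3p: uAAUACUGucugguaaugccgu
mmu-miR-200a-3p: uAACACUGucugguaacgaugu
mmu-miR-141-3p: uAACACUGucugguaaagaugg
The microRNAs themselves were not measured in these libraries. The paper measured them by TaqMan RT-PCR in cells of both lines. In ID8 cells that received both clusters, it reports significant increases for all of them except miR-429 and miR-141. In the other line, all of them increased significantly when both clusters were given. The paper adds that miR-429 and miR-141 were much less abundant than the rest in both lines.

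The total counts per library ranged from 16390953 to 23063875. A member had between 34 counts (Acss2 in 28-2EV replicate 2) and 87927 counts (Scd2 in ID8-200f replicate 2), so counting error was small for nearly all of them. The 28-2 libraries varied more than the ID8 libraries. The SD of a library's log2 deviations from the mean of its group, over expressed genes, was 0.201 to 0.266 in ID8 and 0.302 to 0.565 in 28-2, and 28-2EV replicate 2 stood farthest apart. Of 8 mesothelial and ovarian surface markers, 8 reached a mean of 1 CPM (counts scaled to library size with TMM factors) in ID8EV, ID8-200f and 28-2EV cells and 7 in 28-2-200f cells, where Lrrn4 did not. The 5 adipocyte markers summed to at most 0.314 CPM in any library. Cd68 was the only leukocyte marker and Pecam1 the only endothelial marker that reached 1 CPM in a group.

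Compared per transcript length, as deposited TPM (transcript abundance corrected for length and depth), Scd2, Fads2 and Fads1, all desaturases, were the most abundant members in all 4 groups. In ID8EV cells the mean TPM was 2290 for Scd2 and 900 for Fads2, followed by Fads1 at 513, Scd1 at 300 and Srebf2 at 297. Scd1 and Scd2 encode stearoyl-CoA desaturases, which make monounsaturated fatty acids, and Fads1 and Fads2 encode the delta-5 and delta-6 desaturases of polyunsaturated fatty acids. Scd1 and Scd2 are paralogs, and how the counting treated reads that match more than 1 gene is not given in the sources used here, so their separate levels are uncertain to that extent. Hmgcs1, which encodes cytosolic HMG-CoA synthase, was the cholesterol enzyme with the highest mean in ID8EV cells, at 203 TPM. At the other end were Acss2, the cytosolic acetyl-CoA synthetase, at 3.28 TPM, and Tm7sf2, a sterol C14 reductase, at 6.57 TPM. The plot of CPM by library shows the spread of each gene.

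**Figure D1:**
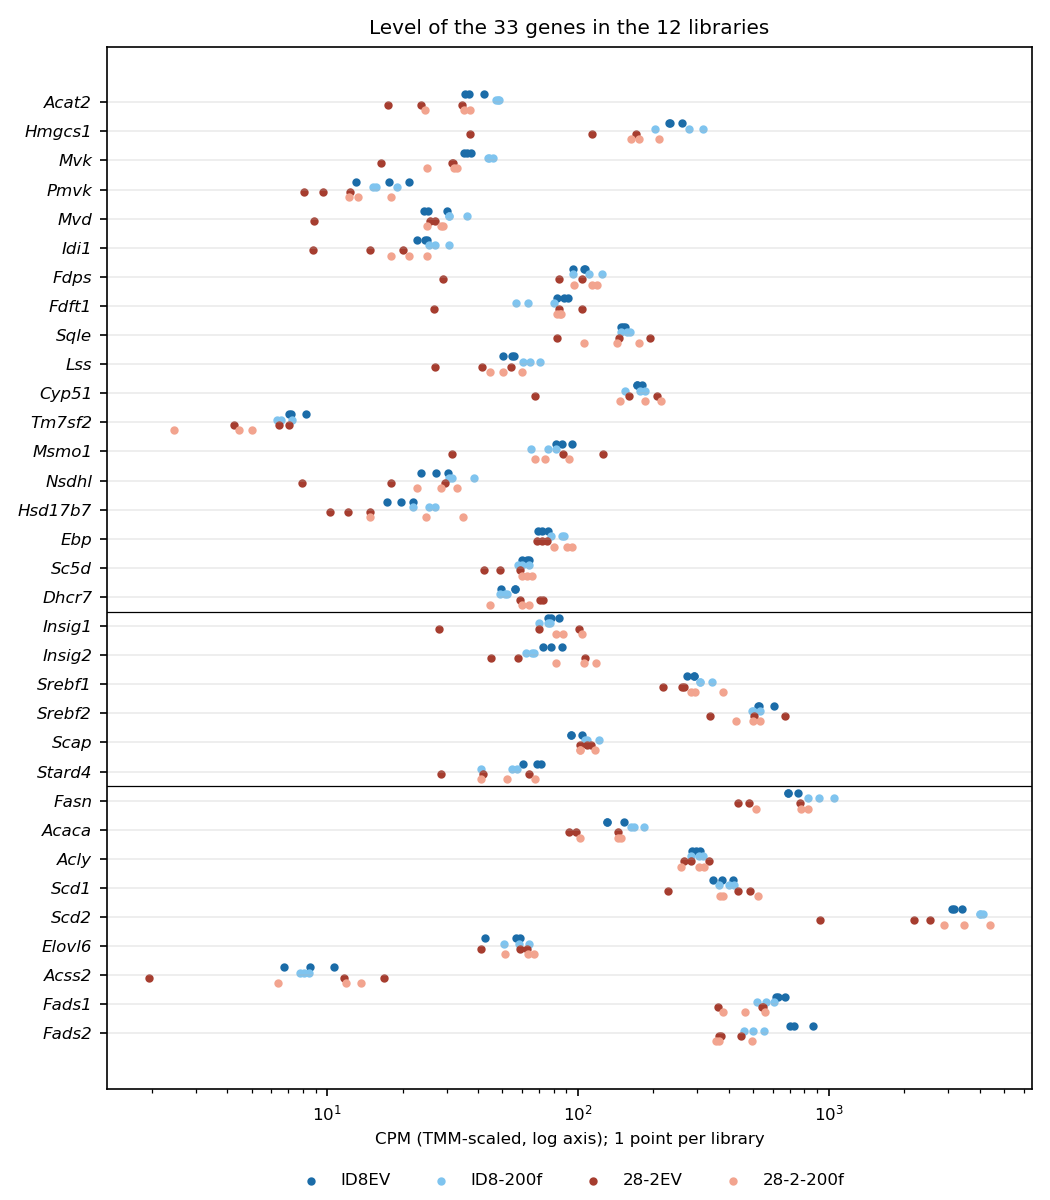
CPM (log axis) of the 33 genes in the 12 libraries, 1 point per library, coloured by group, with cholesterol enzymes above, regulators and the transfer protein in the middle and fatty acid enzymes below. For many cholesterol enzymes the 3 points of 28-2EV cells are spread far more widely than the 3 points of ID8EV cells, for example 37.2 to 170.5 CPM against 230.9 to 259.6 CPM for Hmgcs1.

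The comparison of ID8-200f with ID8EV cells addressed the effect of both miR-200 clusters in ID8 cells. There were small shifts within the set and no common direction. Fatty acid synthase (Fasn), acetyl-CoA carboxylase (Acaca), Scd2 and 3 cholesterol enzymes rose, while Fads2, squalene synthase (Fdft1), Insig2 and Stard4 fell. Tests were made with edgeR's quasi-likelihood test, with p-values adjusted over all genes tested (FDR), and a gene was called below an FDR of 0.05. By that rule 6 members rose, against a background of 17% of all 13280 genes tested, and 4 fell, against a background of 19%. Together 10 of 33 members (30.3%) were called, against a background of 36%. The share of members called was near that of all genes in this fit, and their median log2 fold change was 0.06.

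Fads2 had the largest change of the 33 genes in ID8 cells. It was read at 701.7, 731 and 868.4 CPM in the ID8EV libraries and at 551.9, 460.8 and 499.9 CPM in the ID8-200f libraries. All 3 miR-200 libraries lay below all 3 empty vector libraries. The log2 fold change was -0.61 with an SE of 0.10 (edgeR, FDR = 0.000463), or 0.657 times the level of ID8EV cells. Its neighbour in the same pathway, Fads1, was at 617.2 to 669.5 CPM in ID8EV cells and at 518.7 to 605.9 CPM in ID8-200f cells. These groups did not overlap either, but Fads1 did not pass the test (edgeR, FDR = 0.123). The sets of 3 values did not overlap for 17 of the 33 members (51.5%), against a background of 50.2%.

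Fasn, Acaca and Scd2 rose while Fads2 fell. Fasn was at 754.4, 691.5 and 688.9 CPM in ID8EV cells and at 827.8, 1054 and 919.9 CPM in ID8-200f cells, a log2 fold change of 0.39 with an SE of 0.10 (edgeR, FDR = 0.00705). Acaca, which makes the malonyl-CoA that Fasn uses, was at 130.2 to 152.4 CPM in ID8EV cells and at 163.2 to 182.8 CPM in ID8-200f cells (log2 fold change 0.31, edgeR FDR = 0.0152). Scd2 was at 3419, 3113 and 3165 CPM against 4113, 4024 and 4003 CPM (log2 fold change 0.32, edgeR FDR = 0.013). In each of these genes the lowest ID8-200f library was above the highest ID8EV library. The other fatty acid enzymes did not pass the test. Acly, the ATP citrate lyase that supplies cytosolic acetyl-CoA, had 284.3 to 305.9 CPM in ID8EV cells and 283.3 to 316.8 CPM in ID8-200f cells, and Scd1 had a log2 fold change of 0.06 with an SE of 0.09. Elovl6, which elongates long-chain fatty acids, and Acss2 overlapped between the groups.

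**Figure D2:**
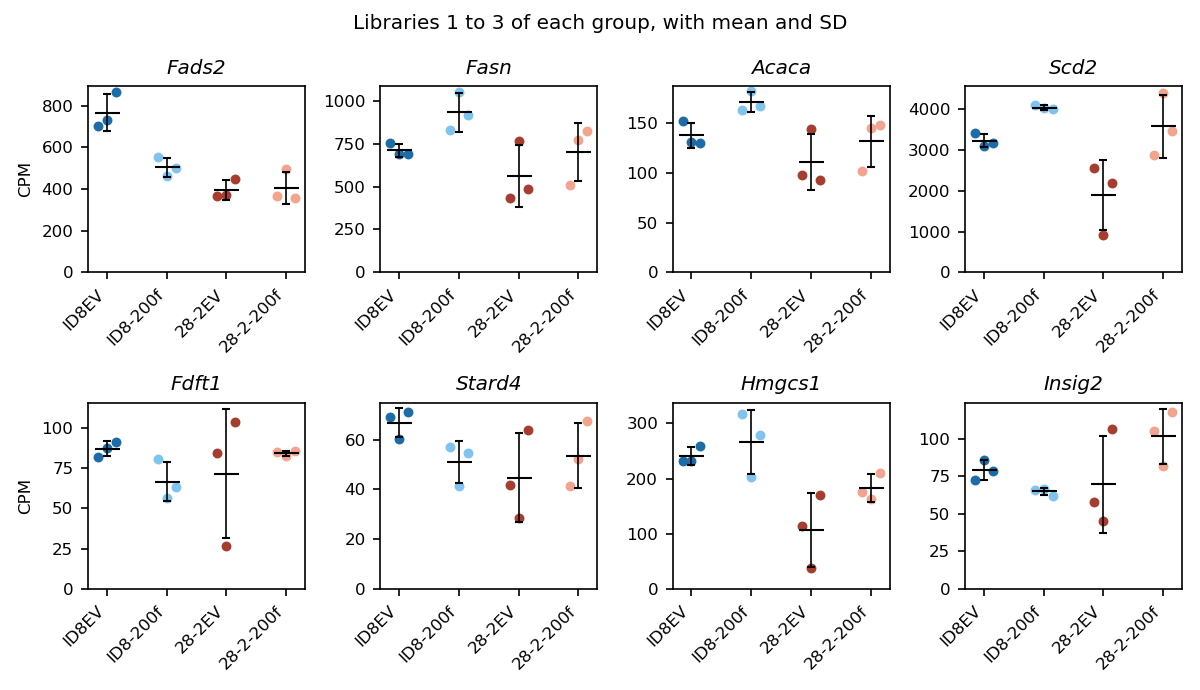
CPM (linear axis from 0) of 8 genes, with libraries 1 to 3 of each group from left to right, the mean as a horizontal mark and the SD as a bar. Fads2 separates ID8EV from the other 3 groups, Fasn, Acaca and Scd2 are higher in all 3 ID8-200f libraries than in any ID8EV library, and 28-2EV replicate 2 is low for Scd2, Fdft1, Stard4 and Hmgcs1 but high for Fasn and Acaca.

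Among the 18 cholesterol enzymes in ID8 cells, 3 rose and 1 fell, beside the backgrounds of 17% and 19%. Acat2, the thiolase at the entry to the mevalonate pathway, was at 35.4, 42.0 and 36.6 CPM in ID8EV cells and at 48.58, 47.96 and 47.01 CPM in ID8-200f cells (log2 fold change 0.33, edgeR FDR = 0.0142). Mevalonate kinase (Mvk) was at 35.2 to 37.6 CPM against 44.0 to 45.8 CPM (log2 fold change 0.30, edgeR FDR = 0.0176). Lanosterol synthase (Lss), which closes the sterol rings, was at 50.1 to 55.8 CPM against 60.2 to 70.3 CPM (log2 fold change 0.28, edgeR FDR = 0.0317). In none of these 3 genes did the groups overlap. Fdft1, which commits farnesyl diphosphate to sterols, was at 82.3, 87.7 and 91.6 CPM in ID8EV cells and at 80.5, 56.5 and 63.1 CPM in ID8-200f cells (log2 fold change -0.39, edgeR FDR = 0.0192), so that ID8-200f replicate 1 lay just below the ID8EV range and the other two well below it. On the GENCODE M21 annotation 18.3% of the exon bases of Fdft1 overlap Ctsb, a lysosomal protease gene on the opposite strand. Ctsb fell as well (log2 fold change -0.56, edgeR FDR = 0.00042), at a mean of 390 CPM over the 12 libraries, and since the strand setting of the counting is not given, the reads of the overlap cannot be assigned to either gene.

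The enzymes between and after these steps did not pass the test. Hmgcs1 was at 230.9, 232.1 and 259.6 CPM in ID8EV cells and at 316.2, 202.4 and 278.2 CPM in ID8-200f cells, with the lowest and the highest of the 6 values both in ID8-200f cells (log2 fold change 0.14, SE 0.13). Squalene epoxidase (Sqle), a rate-limiting enzyme of the later pathway, had a log2 fold change of 0.04 with an SE of 0.08, and Cyp51, the lanosterol demethylase, one of -0.03 with an SE of 0.09. Farnesyl diphosphate synthase (Fdps) was at 0.10 with an SE of 0.10. On the GENCODE M21 annotation 26.7% of its exon bases are shared with Gm43738 on the same strand, but that symbol was not found among the deposited counts. The enzymes with an FDR just above the threshold were Hsd17b7 (FDR = 0.0529), Ebp (FDR = 0.0623), Mvd (FDR = 0.0647) and Nsdhl (FDR = 0.0673), all with a positive fold change in edgeR's test. Msmo1, the C4-methylsterol oxidase, was negative (FDR = 0.0828).

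Of the 6 regulator and transfer genes 2 fell, the regulator Insig2 and the sterol carrier Stard4, and 0 rose, beside the backgrounds of 19% and 17% of all genes. Insig2, one of the pair of proteins that retain SCAP, was at 72.8, 86.1 and 78.3 CPM in ID8EV cells and at 65.8, 66.8 and 62.1 CPM in ID8-200f cells (log2 fold change -0.29, edgeR FDR = 0.0199). Its paralog Insig1 overlapped between the groups, at 75.8 to 83.8 against 69.9 to 77.1 CPM (log2 fold change -0.10, edgeR FDR = 0.415). Stard4, a soluble carrier of cholesterol, was at 69.0, 60.2 and 71.3 CPM in ID8EV cells and at 57.1, 41.3 and 54.6 CPM in ID8-200f cells (log2 fold change -0.39, edgeR FDR = 0.0235). The genes for the factors themselves did not pass the test. Srebf1 was at 273.5 to 289.8 CPM against 306.5 to 343.8 CPM (log2 fold change 0.16, edgeR FDR = 0.127), Srebf2 at 524.9 to 603.4 CPM against 493.5 to 534.7 CPM (log2 fold change -0.12, edgeR FDR = 0.308), and Scap had a log2 fold change of 0.21 (edgeR FDR = 0.0686).

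Of the 10 calls in ID8 cells, those of Fads2 and Fasn held when any of the 6 libraries was left out. The other 8 were each lost without at least 1 library, namely Acat2 without ID8EV replicate 1, Scd2 and Acaca without ID8EV replicate 2, Insig2 without ID8EV replicate 2 or ID8-200f replicate 3, Mvk without ID8EV replicate 2 or ID8-200f replicates 1 or 3, Fdft1 without ID8EV replicate 2 or ID8-200f replicates 2 or 3, Stard4 without ID8EV replicates 1 or 3 or ID8-200f replicate 2, and Lss without ID8EV replicates 1 or 2 or ID8-200f replicates 1 or 3. Hmgcs1 was called higher without ID8-200f replicate 2 (log2 fold change 0.31, edgeR FDR = 0.0219), where 8 members (24.2%) were called higher, against a background of 12.1%, with Nsdhl also gained. Without ID8EV replicate 3 the higher members numbered 9 (27.3%) against a background of 13.8%, with Nsdhl, Mvd and Scap gained. Hsd17b7 was gained without ID8EV replicate 1 or ID8-200f replicate 1, in fits that called 5 members (15.2%) higher, against backgrounds of 15% and 15.2%. When all 12 libraries shared 1 estimate of the spread, Fads2 alone was called (edgeR, FDR = 0.0353), against a background of 4.75% of genes lower in that fit. At an FDR below 0.01 and a log2 fold change beyond 1 in either direction, 0 members passed, against a background of 7.41%; at an unadjusted p below 0.05, 11 members were higher against a background of 22.3% of all genes, and 5 lower against a background of 23.8%. All 5 fibroblast markers were lower in ID8-200f cells, their sum being 465 to 521 CPM in ID8EV and 119 to 169 CPM in ID8-200f libraries, with none of the 5 at 0 in all 3 libraries of a group. Of the 8 mesothelial and ovarian surface markers 3 were higher and 4 lower in ID8-200f cells, for example Upk3b at means of 1477 and 334 CPM, and their sum was 5793 to 7073 CPM in ID8EV and 5285 to 5888 CPM in ID8-200f libraries. The part of these markers in the results was not tested.

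**Figure D3:**
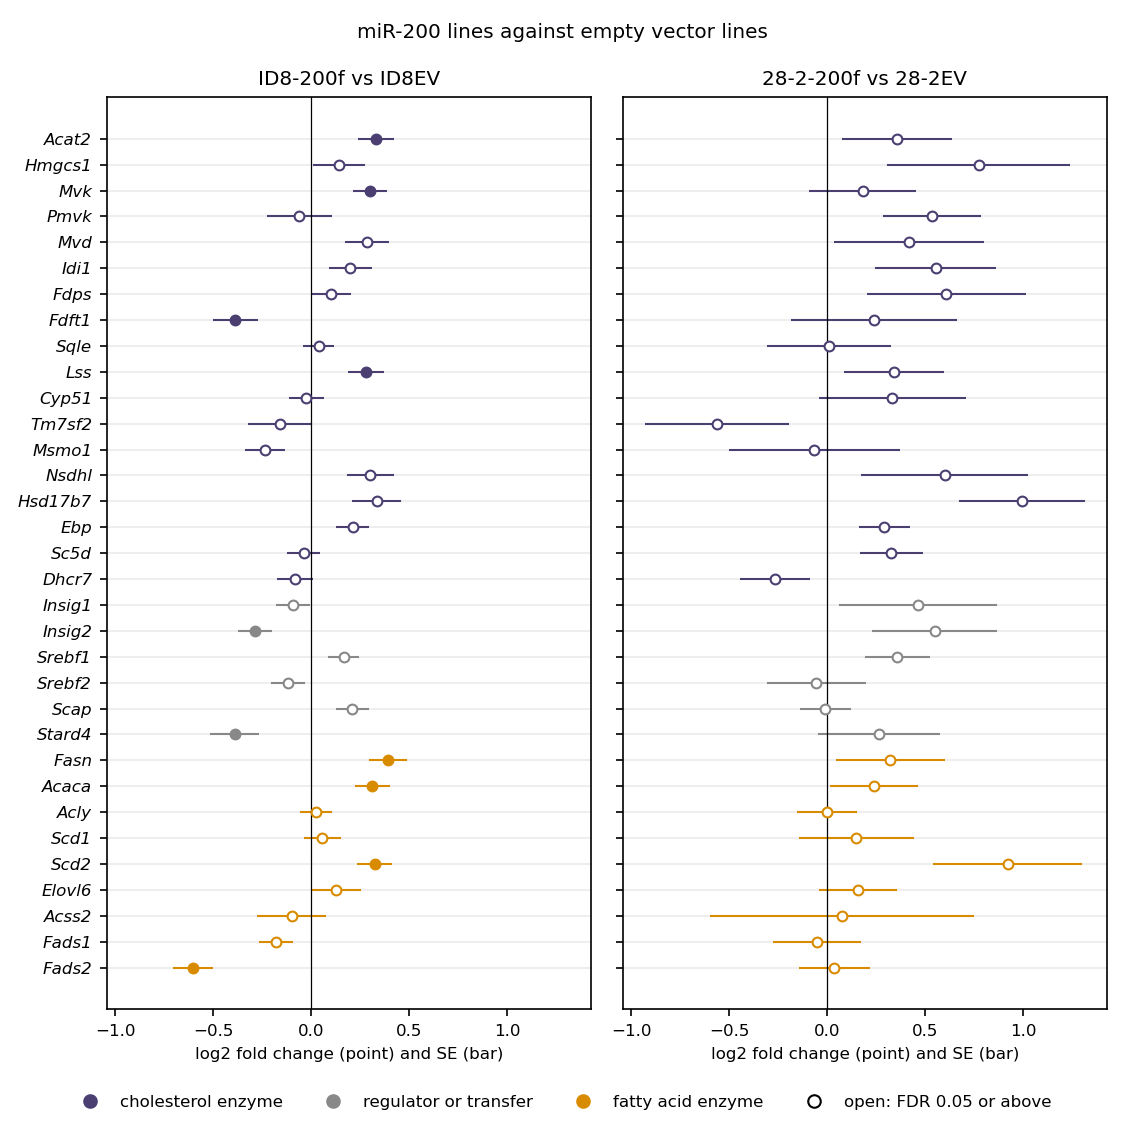
Log2 fold change (point) and SE (bar) of the 33 genes in ID8 cells on the left and 28-2 cells on the right, with filled points where the FDR was below 0.05. The ID8 panel has 10 filled points between -0.61 and 0.39, while the 28-2 panel has none, 27 of its 33 points are above 0 and its bars are longer.

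In 28-2 cells, which were compared to ask whether both clusters acted alike in another line, no member passed the test. By edgeR's test 0 members rose against a background of 2.26% of the 12679 genes tested, and 0 fell against a background of 2.18%, or 4.45% in either direction. At an unadjusted p below 0.05, 2 were higher against a background of 9.62% and 0 lower against a background of 10.5%, and DESeq2 called 1 higher gene against a background of 5.62%. The fold changes were mostly positive, for 27 of the 33 members, with a median log2 fold change of 0.29 against -0.01 over all genes. The members' median deviation varied between single libraries of a group with an SD of 0.343, which is not the SE of that fold change. Without 1 control library, 28-2EV replicate 2, the median log2 fold change was 0.06, and without another, 28-2EV replicate 3, it was 0.45. With any other single library left out it lay between 0.24 and 0.40. All 3 values of a group lay on one side of the other group for 4 members (12.1%), against a background of 26.1%, and these were Ebp, Sc5d, Srebf1 and Scd2. Of the marker lists, 2 of 4 tested fibroblast markers fell in 28-2-200f cells, Pdgfra and Col1a1, with a sum over the list of 84.1 to 488 CPM in 28-2EV and 226 to 384 CPM in 28-2-200f libraries. Of the mesothelial and ovarian surface markers 1 rose, Krt19, and 1 fell, Lrrn4, with a sum of 4157 to 4932 CPM against 6171 to 7817 CPM, and the part of these markers was not tested.

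The members with the lowest p-values in 28-2 cells were Hsd17b7 and Scd2. Hsd17b7, a 3-keto sterol reductase, was at 10.3, 12.1 and 14.8 CPM in 28-2EV cells and at 14.8, 24.7 and 34.8 CPM in 28-2-200f cells. The lowest 28-2-200f library was level with the highest control library. The log2 fold change was 0.99 with an SE of 0.32 (edgeR, FDR = 0.138; DESeq2, FDR = 0.0445). Scd2 was at 2549, 920.2 and 2198 CPM in 28-2EV cells and at 2881, 4402 and 3463 CPM in 28-2-200f cells (log2 fold change 0.92, SE 0.38, edgeR FDR = 0.233), and without 28-2EV replicate 2 its log2 fold change was 0.60. With all 12 libraries in one fit, Hsd17b7, Ebp, Srebf1 and Scd2 were called higher by edgeR, with FDR values of 0.0179, 0.0392, 0.0498 and 0.041, against a background of 9.12% of genes higher, although that fit gives the noisier 28-2 libraries the spread of both lines.

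The 10 genes called in ID8 cells had fold changes in 28-2 cells from 0.04 (Fads2) to 0.92 (Scd2) on the log2 scale, none of them past the test. The 4 that fell in ID8 cells were Fads2, Fdft1 (0.24 in 28-2 cells, SE 0.42), Insig2 (0.55, SE 0.32) and Stard4 (0.26, SE 0.31). With 1 library left out these values ran from -0.12 to 0.13 for Fads2, from -0.15 (without 28-2EV replicate 2) to 0.60 for Fdft1, from 0.32 to 0.98 for Insig2 and from 0.03 to 0.61 for Stard4. Fads2 was at 365.3, 371.3 and 448.3 CPM in 28-2EV cells and at 366.0, 495.6 and 354.9 CPM in 28-2-200f cells, with the groups fully intermixed. Fasn was at 434.0, 768.3 and 483.2 CPM against 511.5, 774.0 and 827.1 CPM (log2 fold change 0.32, SE 0.28, edgeR FDR = 0.587). With 1 library left out the log2 fold change of Fasn ran from 0.18, without 28-2EV replicate 1, to 0.62, without 28-2EV replicate 2. Its highest control library was above the lowest miR-200 library. Of the members not called in ID8 cells, Hmgcs1 was at 113.9, 37.2 and 170.5 CPM in 28-2EV cells and at 174.8, 163.0 and 210.5 CPM in 28-2-200f cells, a log2 fold change of 0.77 with an SE of 0.47 (edgeR, FDR = 0.416). It was 0.37 without 28-2EV replicate 2 and 1.27 without 28-2EV replicate 3. Srebf2 and Scap were near 0, at -0.05 with an SE of 0.25 and -0.01 with an SE of 0.13.

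In 28-2EV replicate 2 most cholesterol genes were lower than in the other 28-2EV libraries. This library was the lowest of its group for 16 of the 18 cholesterol enzymes, the exceptions being Hsd17b7 and Dhcr7, and for 5 of the 6 regulator and transfer genes, where 42.7% of all 11943 expressed genes were lowest in it. The ratio of its CPM to the mean of replicates 1 and 3 had a median of 0.51 over the cholesterol enzymes, 0.559 over the regulator and transfer genes and 0.679 over the fatty acid enzymes, beside 0.981 over all expressed genes. Among the lowest ratios were 0.262 for Hmgcs1, 0.284 for Fdft1, 0.295 for Msmo1, 0.31 for Fdps, 0.327 for Insig1 and 0.136 for Acss2. At the other end of the cholesterol enzymes the ratio was 0.786 for Sc5d, 0.935 for Ebp, 0.967 for Hsd17b7 and 1.12 for Dhcr7. Msmo1 was at 87.2, 31.5 and 126.5 CPM, and Insig1, whose transcript is a known SREBP target, at 69.9, 27.9 and 100.8 CPM. The 28-2EV libraries were spread over a range in which replicate 3 was the highest for 16 of the 18 cholesterol enzymes. The median log2 deviation of these enzymes from the group mean was 0.14 in replicate 1, -0.62 in replicate 2 and 0.52 in replicate 3.

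Fasn and Acaca went against that order. In 28-2EV replicate 2 they were the highest of the 3 libraries, with ratios of 1.68 and 1.51, and Dhcr7, the last enzyme of cholesterol synthesis among the members, was at 72.6 CPM against 58.8 and 70.7 CPM. Acly was at 281.9 CPM, between 265.4 and 333.3 CPM. ID8-200f replicate 2 was the lowest of its group for 13 of the 18 cholesterol enzymes, beside 30.3% of all expressed genes, while it had the highest Fasn, at 1054 CPM, and the highest Acaca, at 182.8 CPM. 28-2-200f replicate 1 was also the lowest of its group for 13 of the 18 cholesterol enzymes, beside 42.6% of all expressed genes, but it had the lowest Fasn, at 511.5 CPM, and the lowest Acaca, at 102.2 CPM. Srebf2 was the lowest of its group in each of these libraries, at 336.2 CPM in 28-2EV replicate 2, 493.5 CPM in ID8-200f replicate 2 and 426.9 CPM in 28-2-200f replicate 1. The next ID8-200f library was close, at 500.25 CPM. The summed CPM of the 18 cholesterol enzymes was 569 in 28-2EV replicate 2 and between 1040 and 1463 in the other 11 libraries. This is a description of single libraries.

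**Figure D4:**
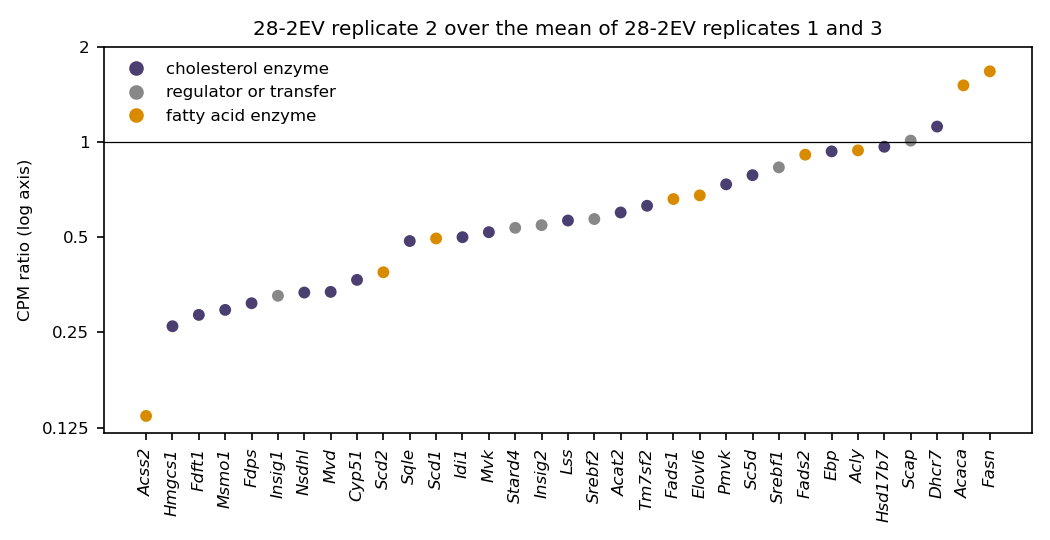
CPM of 28-2EV replicate 2 divided by the mean CPM of 28-2EV replicates 1 and 3 (log axis) for the 33 genes, in rising order and coloured by pathway, with a line at 1. The ratios run from 0.136 for Acss2 to 1.68 for Fasn, and cholesterol enzymes fill most of the low end.

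The empty vector cells of the lines were compared to see how the set differed before the clusters were added. Fads2 was the only member called in 28-2EV against ID8EV cells, at 365.3 to 448.3 CPM against 701.7 to 868.4 CPM, a log2 fold change of -0.95 with an SE of 0.15 (edgeR, FDR = 0.0168). It is the gene that also fell in ID8-200f cells, a comparison that shares the ID8EV libraries. This made 1 member lower against a background of 2.52% of 13073 genes tested, 0 higher against a background of 0.887%, and 1 in either direction against a background of 3.41%. The Fads2 call was lost when ID8EV replicate 1, 2 or 3 or 28-2EV replicate 1 was left out, although its log2 fold change stayed between -1.04 and -0.84. At an unadjusted p below 0.05, 1 member was higher against a background of 7.43% and 6 were lower against a background of 9.13%.

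Fold changes were negative for 28 of the 33 members, with a median log2 fold change of -0.31 against 0.02 over all genes. The median was no larger than 0.323, the SD of the members' median deviation between single libraries of a group. That SD is not the SE of a difference between groups. The 3 values of each group did not overlap for 13 members (39.4%), against a background of 24.4%. Hmgcs1 had the widest difference, with a log2 fold change of -1.16 and an SE of 0.47 (edgeR, FDR = 0.271), and its 28-2EV libraries at 37.2 to 170.5 CPM were all below the 230.9 CPM of the lowest ID8EV library. Scd2, at 920.2 to 2549 against 3113 to 3419 CPM, did not overlap either (log2 fold change -0.77, SE 0.35, edgeR FDR = 0.325), and its log2 fold change was -0.43 without 28-2EV replicate 2. Dhcr7 lay the other way, at 58.8 to 72.6 CPM in 28-2EV against 49.3 to 56.3 CPM in ID8EV cells. Without 28-2EV replicate 2 the median was -0.12, and 4 members were called lower against a background of 5.41% in the same fit, Fasn (log2 fold change -0.62), Acaca (-0.52), Hmgcs1 (-0.74) and Fads2 (-0.90). Without 28-2EV replicate 3 the median was -0.59. Of the marker lists, 3 of 8 mesothelial and ovarian surface markers (Lrrn4, Upk3b and Bnc1) and 2 of 5 fibroblast markers (Col1a1 and Acta2) were called lower in 28-2EV cells. The sums of the first list did not overlap, at 5793 to 7073 CPM in ID8EV and 4157 to 4932 CPM in 28-2EV libraries, while those of the second did, at 465 to 521 and 84.1 to 488 CPM, and the part of these markers was not tested.

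Whether the lines responded differently was tested with an interaction term in a fit of the 12 libraries. By edgeR 0 members had a higher and 0 a lower response in 28-2 than in ID8 cells, against a background of 2.26% and 0.712% of 13620 genes tested and of 2.97% in either direction, and DESeq2 called none. At an unadjusted p below 0.05, 3 were higher against a background of 9.38% and 0 lower against a background of 6.54%. The 3 genes, none of which passed the test, were Fads2 (difference 0.65, SE 0.21, edgeR FDR = 0.137), Insig2 (difference 0.85, SE 0.35, edgeR FDR = 0.263) and Sc5d, the sterol C5 desaturase (difference 0.37, SE 0.16, edgeR FDR = 0.289). The responses of the lines were thus not shown to differ for any member. Insig2 was called without 28-2EV replicate 3 (difference 1.27, edgeR FDR = 0.0077), against a background of 3.62% of genes higher in that fit.

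The 3′UTRs of the members were searched for the letters that pair with the 2 seeds, CAGTATT for miR-200b/200c/429 and CAGTGTT for miR-200a/141, on the transcript strand of the longest GENCODE M21 3′UTR. A match was found in 11 of 33 members (33.3%), beside 30.4% of the 11657 tested genes with a 3′UTR. By family the share was 15.2% against 15.6% for CAGTATT and 21.2% against 21.1% for CAGTGTT. The median log2 fold change in ID8 cells was 0.06 both for the 11 members with a match and for the 22 without. Of the 11 with a match 3 rose and 2 fell, and of the 22 without a match 3 rose and 2 fell, beside 17% and 19% of all genes. The classes differ in size, so these equal counts are unequal shares, and the difference was not tested. Scd2, which rose in ID8-200f cells, had 4 matches, the most of any member. The sites of Scd2 nearest the stop codon, 1 of each family, are shown as an example from the member with the most matches, on GRCm38, 5′ to 3′ on the transcript strand with the match in capitals.
Scd2 at chr19:44303314-44303342, plus strand: ccattctggtaCAGTATTgtaaaacggac
Scd2 at chr19:44303478-44303506, plus strand: cagctataggtCAGTGTTcaccttccaga
A match of letters is a description and not a measured binding site.

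Promoters of 26 of the 33 members were matched in RefSeq on GRCm38.p6, as a window that starts upstream of the gene and ends shortly after its start. The sterol regulatory element consensus TCACNCCAC, searched on both strands, was in 1 of them (3.85%, Hmgcs1), beside 1.44% of 27025 genes. CCAAT, the letters that NF-Y binds, was in 21 (80.8%) beside 41.1% of genes, and the E-box CACGTG in 5 (19.2%) beside 8.09%. The promoters of Hmgcs1 and Fasn are shown because these genes went opposite ways in 28-2EV replicate 2. Capitals mark the sterol regulatory element letters, 137 bases before the start in Hmgcs1, and CCAAT or its reverse complement ATTGG, 4 in Hmgcs1 and 3 in Fasn, a pair of which overlap in Fasn.
Hmgcs1 at chr13:119690101-119690400, plus strand: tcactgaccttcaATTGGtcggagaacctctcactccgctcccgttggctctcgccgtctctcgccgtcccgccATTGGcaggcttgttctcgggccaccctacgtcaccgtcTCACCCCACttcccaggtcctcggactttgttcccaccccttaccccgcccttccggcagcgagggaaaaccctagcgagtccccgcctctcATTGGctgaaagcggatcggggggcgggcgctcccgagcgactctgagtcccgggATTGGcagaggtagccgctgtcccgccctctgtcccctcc
Fasn at chr11:120824498-120824797, minus strand: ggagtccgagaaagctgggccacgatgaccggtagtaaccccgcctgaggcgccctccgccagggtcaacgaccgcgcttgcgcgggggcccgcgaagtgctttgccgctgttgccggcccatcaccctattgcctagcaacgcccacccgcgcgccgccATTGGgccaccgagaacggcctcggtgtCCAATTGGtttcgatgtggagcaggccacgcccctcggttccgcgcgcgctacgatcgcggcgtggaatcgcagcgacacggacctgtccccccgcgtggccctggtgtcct
No match to the consensus in the Fasn window says only that these letters are not there. The windows of Insig1, Mvd and Cyp51 held no match to it either. Their ratios in 28-2EV replicate 2 were 0.327, 0.336 and 0.367. A link between these letters and the levels was not tested.

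Genes next to the set in metabolism were counted by list in ID8 cells. Each count below stands beside the 17% of all genes tested that rose and the 19% that fell in that fit. No list was tested as a set. Of 16 tested genes for sterol uptake, efflux, storage and LXR signalling, 4 rose and 9 fell, beside the backgrounds of all genes given above, with a median log2 fold change of -0.35. Among those that fell were Soat1, which esterifies cholesterol for storage, from a mean of 1439 to 770 CPM (log2 fold change -0.90), Npc1, which exports cholesterol from lysosomes (-0.86), and the efflux pump Abca1 (-1.16). Lrp8, which encodes a receptor for lipoproteins, rose from a mean of 29.2 CPM in ID8EV to 65.1 CPM in ID8-200f cells (1.16 on the log2 scale). All 4 had an edgeR FDR below 0.05. Of 10 genes that process or degrade SREBPs, 1 rose and 1 fell, the latter Rnf145 (-0.46), a ubiquitin ligase linked to SREBP control. Of 14 isoprenoid branch genes 3 rose and 0 fell. For fatty acid elongation, activation and glycerolipid assembly, 6 of 25 tested genes rose, with Elovl7 at 1.42 and Acsl5 at 0.57, and 3 fell, with Mid1ip1, whose product stimulates acetyl-CoA carboxylase, at -0.91. Of 22 tested fatty acid oxidation genes 1 rose and 6 fell, for example Acaa2 (-0.86), a thiolase of mitochondrial beta-oxidation. Of 6 NADPH-supplying genes 3 rose and 0 fell, namely Mthfd1 (0.92), Pgd (0.64) and malic enzyme Me1 (0.38).

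In 28-2-200f cells, 3 of 25 tested genes of the elongation and glycerolipid list rose, Lpin3, Elovl7 and Lpin2, beside 2.26% of all genes that rose in that line. Scarb1, a lipoprotein receptor, was the only one of 15 tested sterol handling genes that fell (log2 fold change -0.96, edgeR FDR = 0.0178), beside 2.18% of all genes. Elovl7 was at a mean of 8.12 CPM in 28-2EV and 22.4 CPM in 28-2-200f cells, a log2 fold change of 1.46 in 28-2 beside 1.42 in ID8 cells. Pgd was at means of 281.6 and 478 CPM in the 28-2 groups but did not pass the test there. The interaction was called for Nceh1, a cholesteryl ester hydrolase (difference 1.00, edgeR FDR = 0.00432), Cyp27a1, the sterol 27-hydroxylase (3.10, edgeR FDR = 0.0275), and Lpin3, a phosphatidate phosphatase (4.29, edgeR FDR = 0.00332), with higher responses in 28-2 cells, and for Vldlr, a lipoprotein receptor, with a lower one (-4.87, edgeR FDR = 0.0317), beside 2.26% and 0.712% of all genes. Large differences among these came with low levels. From 28-2EV to 28-2-200f cells the means were 0.298 and 6.57 CPM for Lpin3, 20.2 and 1.16 CPM for Vldlr and 2.42 and 5.88 CPM for Cyp27a1.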

How the data were processed

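RNA was extracted with a mirVana kit and sequenced commercially from 3 independent samples per cell line. Per the study's methods, the pipeline of the authors (Genialis 3.0) used BBDuk for trimming, STAR for alignment and featureCounts for gene counts. The build in the submitters' processing notes is GRCm39, and tool versions and strand setting are not given in the sources used here. The deposited whole-number counts were used for tests, and TPM values deposited by the authors only to compare levels between genes. Each comparison was fitted alone with edgeR 4.0.16 (R 4.3.3, TMM factors, filterByExpr with at least 10 counts and a total of 15, quasi-likelihood test), with p-values adjusted over all genes tested. All 33 members passed the filter in all 4 comparisons. The SE is the log2 fold change divided by the root of F. The deposited CPM values, which the authors scaled to the raw library total, were replaced by CPM on TMM-scaled totals over 12 libraries. Alternatives were DESeq2 1.42.0, other scalings and filters, 1 fit of 12 libraries, a replicate block and each library left out. Names follow a rule: every called member, fixed pathway genes and those beside a threshold; Dhcr7, Msmo1, Acss2, the genes of the search for letters and the examples of each list were chosen after their values were seen. The members and lists were chosen with earlier results of these data known. The labels do not say how the cultures were kept apart, so p-values measure the spread between these samples. 3′UTRs and promoters came from GENCODE M21 and RefSeq on GRCm38, and no coordinate was moved between builds. The test script was tested on simulated data. The 3′UTR matches of other single members are not reported here.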

Additional observations from a re-analysis of the deposited data

How the results depend on the processing

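In ID8 cells the counts of 6 higher and 4 lower members became 0 and 1 with all 12 libraries in one fit, and 0 and 0 at an FDR below 0.01 with a log2 fold change beyond 1, which 0 members reach. With 1 library left out they ranged from 2 to 9 and from 2 to 4, and the median log2 fold change from 0.0148 to 0.12. In 28-2 cells the count of 0 higher members became 1 with DESeq2 and 4 in one fit. In 28-2EV against ID8EV cells the count of 1 lower member became 2 with DESeq2, 2 without the filter on low counts and 0 at the stricter rule, and ranged from 0 to 4 with 1 library left out. For the difference between lines the count of 0 higher members became 1 without the filter, and ranged from 0 to 1 with 1 library left out. No called value reversed. Over all genes, one fit of 12 libraries called 361 higher and 647 lower in ID8 cells (2256 and 2519 when fitted alone), 1242 and 1083 in 28-2 cells (287 and 277 alone) and 319 and 634 between the empty vector lines (116 and 330 alone). DESeq2 called 712 and 756 in 28-2 cells, 406 and 653 between the empty vector lines and 599 and 321 for the difference between lines (308 and 97 by edgeR), and edgeR without the filter called 511 and 579, 291 and 571, and 600 and 306. Same-numbered libraries did not deviate together, with correlations of -0.11, 0.05 and -0.03 in ID8 and 0.21, 0.12 and -0.30 in 28-2 cells. With the replicate number as a block the members' counts were 6 and 4 in ID8, 0 and 0 in 28-2, 0 and 1 between the empty vector lines and 0 and 0 for the difference, and the count over all 28-2 genes moved to 150 and 115. With 3 libraries per group and the spread of the 28-2 libraries, the SE of a member's log2 fold change in 28-2 cells was between 0.13 and 0.67, so that changes of the size called in ID8 cells were not detectable there for most members.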
